A study of Mus musculus with 8 samples.

Results

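Small antral follicles that grew from transplanted female germline stem cells (FGSCs) were compared with small antral follicles of wild type mice, by RNA sequencing of single follicles. The members were the 4 libraries labelled small antral follicle, 4 of the 8 libraries of the series. They fell into SAF-TF, with 2 follicles from transplanted FGSCs, and SAF-WT, with 2 follicles from wild type mice. The other 4 libraries were preantral follicles of both sources (PF-TF and PF-WT, 2 each), and were used to estimate the spread and in the comparison of stages at the end. All mice were of the C57BL/6 strain and all follicles came from ovary, where they were separated with a hypodermic needle. FGSCs are cells isolated for their germ cell markers and propagated, which are placed into a host ovary. The sources used here do not give the host, its pretreatment, the age of the mice or the cells of a follicle that derived from the transplant. Nor do they say if both follicles in each group were taken from different animals, so p-values measure only the spread between these follicles. TF and WT libraries were deposited in separate tables, and any difference in handling between them cannot be told apart from the source of the follicle.

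As background, a follicle holds an oocyte, granulosa cells around it and, outside a basement membrane, a layer of theca cells with vessels and stroma. Theca cells make androgens with Cyp17a1, and granulosa cells turn these into estrogens with Cyp19a1. After ovulation, the wall of the follicle becomes a corpus luteum. Its cells leave the cell cycle, take up cholesterol, and make progesterone in large amounts with Star, Cyp11a1 and Hsd3b1. In rodents, Akr1c18 (20-alpha-hydroxysteroid dehydrogenase) breaks progesterone down and marks the corpus luteum at the end of its life, together with the prostaglandin F receptor Ptgfr.

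Total counts were between 8439542 and 9805287 per library, and 19458 to 20118 genes had at least 1 count. Levels are given as CPM, normalised read counts on a common library scale, and the 4 values of a gene are given for SAF-TF replicates 1 and 2 and then SAF-WT replicates 1 and 2. A gene was called where the adjusted p of the edgeR quasi-likelihood test, over all 17925 genes tested, was under 0.05. Log2 CPM correlated at 0.976 between the SAF-TF and at 0.975 between the SAF-WT libraries, and at 0.911 to 0.937 between sources, over genes, which are no independent replicates. The 10 most abundant genes held 10.3% and 9.34% of counts in SAF-TF, against 6.27% and 6.30% in SAF-WT. Mitochondrially encoded genes held 3.85% and 2.96% against 1.70% and 2.06%, and ribosomal protein genes 3.40% and 3.94% against 6.86% and 6.69%. The part of these library-wide differences in the results below was not tested. In whole follicles, fewer cells of a type and less RNA per cell cannot be told apart.

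In SAF-TF, 827 genes were higher (4.61% of those tested) and 958 were lower (5.34%), while the median over all genes was a log2 fold change of 0. Of the 1785 called genes, 1510 differed by more than 1 on the log2 scale. At an unadjusted p under 0.05 there were 5117. The libraries of the groups did not overlap for 5610 genes that were higher in SAF-TF (31.3%) and for 5826 that were lower (32.5%). With SAF-TF replicate 1, SAF-TF replicate 2, SAF-WT replicate 1 or SAF-WT replicate 2 left out, in this order, 93, 600, 77 and 140 genes were higher and 50, 407, 129 and 152 lower. None of the 222 genes chosen by the naming rule was called in the opposite direction in these fits, but many lost the call. Genes without a call could change sign, such as Gdf9, whose SAF-TF values (given below) lay above that of SAF-WT replicate 1. Of 156 such genes that were called, 41 were called in each of the 4 fits, 79 in 1 to 3 and 36 in none. The direction of change also followed base composition. With genes divided into 5 groups of like size by transcript GC content, from the lowest to the highest, the median log2 fold change was -0.37, -0.13, -0.02, 0.29 and 0.69. With a correction for GC content and transcript length, 506 genes were higher and 516 lower.

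**Figure D1:**
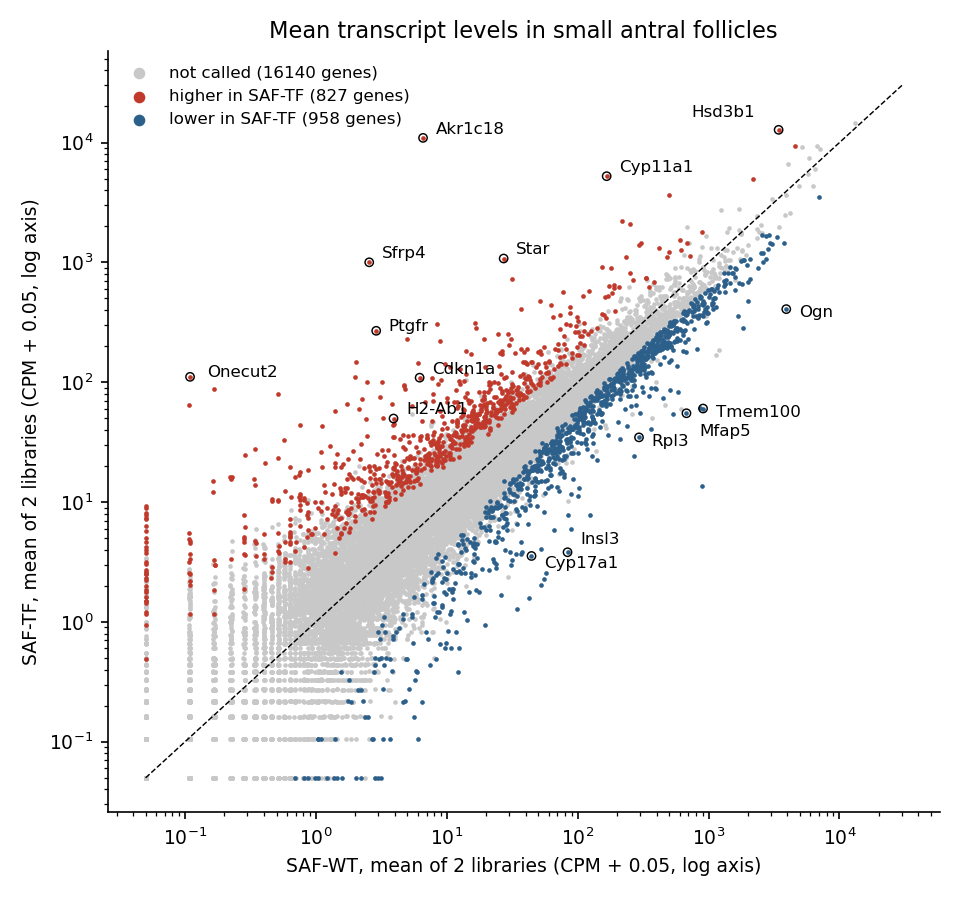
Mean CPM of 2 libraries per group for the 17925 genes tested, SAF-WT on the x axis and SAF-TF on the y axis, both log axes with 0.05 added, and the dashed line at equal levels. Called genes are red (827 higher in SAF-TF) or blue (958 lower), circles mark genes named in the text, and Akr1c18 lies farthest above the line.

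Genes of progesterone synthesis and breakdown were higher in SAF-TF. Of 13 measured members, 8 were higher and 0 lower, and the median log2 fold change was 1.90. Akr1c18 (chr13:4132615-4150646, GRCm38) stood at 10527 and 11346 CPM in SAF-TF and at 6.20 and 6.87 CPM in SAF-WT. Its log2 fold change was 10.71 ± 0.24 (standard error here and below, adjusted p = 3.24e-08). The steps that make progesterone differed in the same direction. Star (chr8:25808474-25815982), which carries cholesterol into mitochondria, was at 1289 and 866 CPM against 22.0 and 32.2 CPM (5.31 ± 0.42, adjusted p = 2.88e-04). Cyp11a1 (chr9:57998024-58027031), the side-chain cleavage enzyme, was at 7838 and 2643 CPM against 169 and 164 CPM (4.98 ± 0.58, adjusted p = 0.00274). For each of these the lowest SAF-TF library was above the highest SAF-WT library, as for 31.3% of all genes tested. Cyp11a1 was lower in SAF-TF replicate 2 than in replicate 1.

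Fdx1 and Fdxr, ferredoxin and its reductase, pass electrons to Cyp11a1. Fdx1 was at 4156 and 3194 CPM against 502 and 496 CPM (2.88 ± 0.28, adjusted p = 0.00105), and Fdxr at 160 and 72.5 CPM against 15.4 and 12.7 CPM (3.05 ± 0.39, adjusted p = 0.00402). Hsd3b1 (chr3:98842356-98859794), which forms progesterone from pregnenolone, was abundant in both groups, at 15049 and 10489 CPM against 3775 and 3080 CPM (1.90 ± 0.32, adjusted p = 0.0101). The mitochondrial membrane gene Tspo (1.80) and the mitochondrial trafficking gene Mgarp (3.36) were the other members called. Nr5a1 and Nr5a2, nuclear receptors that drive steroidogenic genes, were at 0.80 (adjusted p = 0.178) and 0.13 (adjusted p = 0.810) and did not pass. With the libraries left out in the order above, 5, 7, 5 and 5 members were higher. Akr1c18, Star, Cyp11a1, Fdx1 and Fdxr passed in each of these 4 fits, while Hsd3b1 passed in 1 (highest adjusted p = 0.0795).

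Of 8 measured genes of androgen and estrogen synthesis, 2 were higher and 1 lower, with a median of 1.21. Cyp17a1 (chr19:46667165-46673000), which makes androgens, went against the progesterone genes. It was at 4.18 and 2.82 CPM in SAF-TF and at 47.2 and 41.5 CPM in SAF-WT (-3.66 ± 0.49, adjusted p = 0.00447, called in each leave-one-out fit). Hsd17b7, which acts in cholesterol synthesis and on estrone, was at 230 and 133 CPM against 14.6 and 13.5 CPM (3.69 ± 0.41, adjusted p = 0.00222). Por, the electron donor of microsomal cytochromes, was also higher (2.33 ± 0.55, adjusted p = 0.0300), though in only 1 of the 4 leave-one-out fits (highest adjusted p = 0.233). The aromatase gene Cyp19a1 was low in all 4 libraries, at 4.84 and 9.25 CPM against 1.38 and 2.96 CPM (adjusted p = 0.149).

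The luteal cell list, which shares members with the progesterone list, had 15 of 18 measured genes higher and 0 lower, with a median of 2.87. As the lists were chosen with earlier results of these data known, this count and median only describe the listed genes. The summed level of the list was 38940 and 27590 CPM in SAF-TF and 4365 and 3647 CPM in SAF-WT, and no member was at 0 in both libraries of a group. Sfrp4 (chr13:19623175-19632825), a secreted Wnt-binding protein, was at 1294 and 710 CPM against 2.64 and 2.37 CPM (8.64 ± 0.49, adjusted p = 7.48e-05). Ptgfr (chr3:151798610-151837528), through which prostaglandin F ends luteal function, was at 291 and 246 CPM against 4.02 and 1.66 CPM (6.55 ± 0.42, adjusted p = 1.11e-04). Both genes were near the bottom of the range in SAF-WT and passed in each leave-one-out fit. The kinase gene Sgk1 (4.26), Parm1 (3.09), the cell cycle inhibitor gene Cdkn1b (2.00) and the protease inhibitor gene Timp1 (1.81) were higher as well. Cdkn1c (1.02, adjusted p = 0.126), Pdk4 (-0.56, adjusted p = 0.748) and the vessel growth factor gene Vegfa (0.03, adjusted p = 0.978) did not pass. With the libraries left out in the order above, 8, 15, 8 and 10 luteal genes were higher. Both groups carry the label small antral follicle, and the sources used here give no histology of these follicles.

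Receptors for the hormones that act on the follicle and corpus luteum were higher in 4 of 13 and lower in 0, with a median of 0.16. Prlr (chr15:10177238-10349190), the receptor for prolactin, which sustains the rodent corpus luteum, was at 584 and 291 CPM against 72.7 and 51.3 CPM (2.82 ± 0.38, adjusted p = 0.00487). Lhcgr (chr17:88716384-88792059), the luteinizing hormone receptor, was at 514 and 216 CPM against 80.2 and 67.3 CPM (2.31 ± 0.47, adjusted p = 0.0185). The oxytocin receptor Oxtr was at 36.0 and 19.3 CPM against 6.08 and 3.44 CPM (2.53 ± 0.53, adjusted p = 0.0206). Libraries did not overlap for these 3 genes, which also held for 31.3% of all genes tested as higher in SAF-TF. Prlr was called in each leave-one-out fit. Lhcgr and Oxtr were called in 1, with highest adjusted p of 0.168 and 0.233, and the list counted 1, 3, 1 and 1 in the order above. The estrogen receptors Esr1 and Esr2 were at 0.51 and -0.38, without a call.

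**Figure D2:**
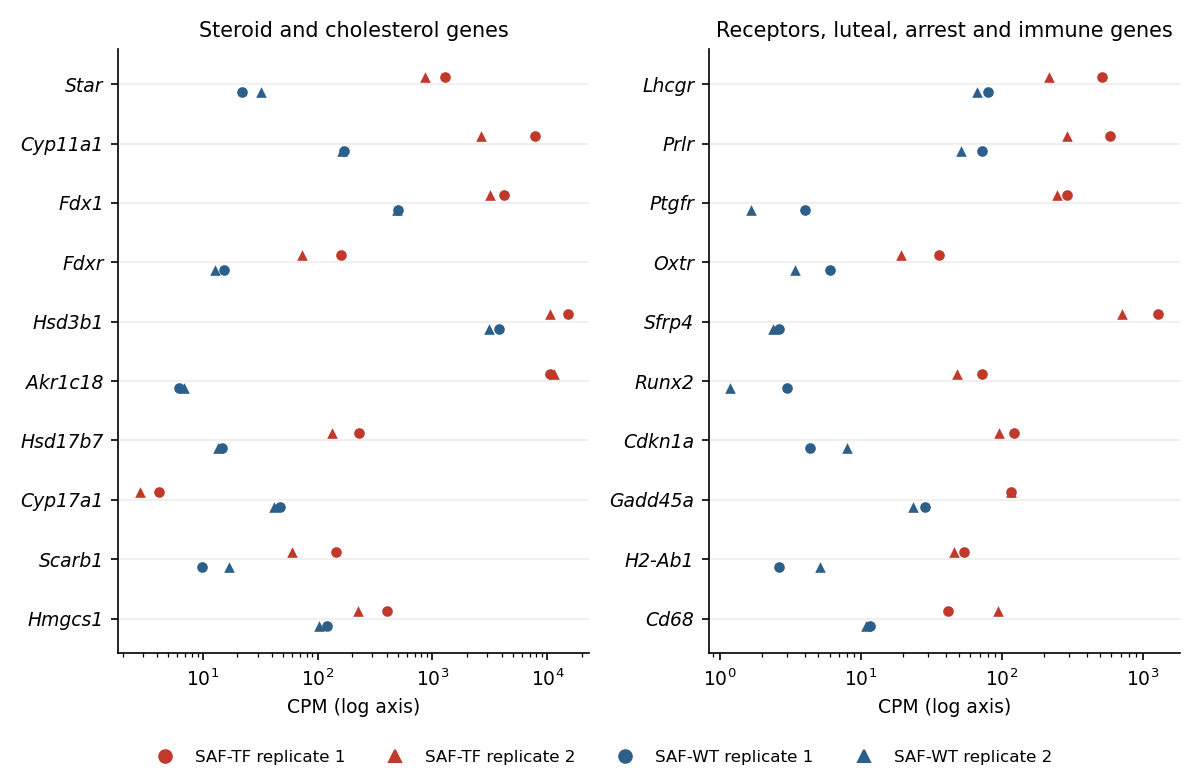
CPM (log axis) of 20 genes in each of the 4 small antral libraries, red for SAF-TF and blue for SAF-WT, circles for replicate 1 and triangles for replicate 2. In every row the red and blue points do not overlap, and Cyp17a1 is the row in which SAF-TF is lower. Among all genes tested, 31.3% were higher and 32.5% lower in SAF-TF without overlap.

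Promoter windows of luteal genes that differed together are shown because they hold the motif AGGTCA, which nuclear receptors such as Nr5a1 and Nr5a2 bind as part of a longer site. The windows span 250 bases before to 50 after a RefSeq start (GRCm38.p6) and read 5′ to 3′ in the direction of the gene. Capitals mark AGGTCA or its complement TGACCT. They are Akr1c18 (chr13:4150597-4150896, minus strand), Cyp11a1 (chr9:58014702-58015001, plus strand), Lhcgr (chr17:88791965-88792264, minus strand) and Ptgfr (chr3:151837479-151837778, minus strand).
Akr1c18: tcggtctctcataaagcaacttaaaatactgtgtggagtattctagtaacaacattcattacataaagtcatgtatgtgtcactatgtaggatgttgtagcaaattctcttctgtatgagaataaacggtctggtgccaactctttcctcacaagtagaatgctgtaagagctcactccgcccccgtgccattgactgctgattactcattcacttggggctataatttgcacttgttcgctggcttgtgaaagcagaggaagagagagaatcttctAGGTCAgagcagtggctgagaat
Cyp11a1: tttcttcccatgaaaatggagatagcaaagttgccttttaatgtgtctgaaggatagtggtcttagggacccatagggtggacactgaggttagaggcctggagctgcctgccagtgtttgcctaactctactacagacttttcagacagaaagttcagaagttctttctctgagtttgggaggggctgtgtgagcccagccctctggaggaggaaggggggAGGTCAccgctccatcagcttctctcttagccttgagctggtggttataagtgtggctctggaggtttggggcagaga
Lhcgr: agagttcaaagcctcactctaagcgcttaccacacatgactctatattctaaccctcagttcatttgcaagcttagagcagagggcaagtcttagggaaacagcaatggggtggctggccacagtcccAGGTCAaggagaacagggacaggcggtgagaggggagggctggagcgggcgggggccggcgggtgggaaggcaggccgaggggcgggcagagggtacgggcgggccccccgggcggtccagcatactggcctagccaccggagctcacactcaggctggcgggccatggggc
Ptgfr: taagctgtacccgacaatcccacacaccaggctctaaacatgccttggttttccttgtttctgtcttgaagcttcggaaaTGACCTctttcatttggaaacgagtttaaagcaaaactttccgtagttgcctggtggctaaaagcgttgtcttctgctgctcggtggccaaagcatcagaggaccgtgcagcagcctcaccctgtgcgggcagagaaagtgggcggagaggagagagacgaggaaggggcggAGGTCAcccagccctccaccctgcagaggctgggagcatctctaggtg
The motif began 28 bases after the start in Akr1c18, counting the start as 1, and 28 and 122 bases before it in Cyp11a1 and Lhcgr. In Ptgfr it began 170 bases before the start, as the complement, and at base 3. Of 19 genes of the progesterone and luteal lists that were higher, 15 had 23 windows in the table. The motif, sought on both strands, was in 7 of these windows (30.4%), which belonged to 6 genes. It was in 16.3% of all 32851 windows. These are matches of letters only, and no binding was measured. The longer site of Nr5a1 and Nr5a2 was not sought, so the marked stretches are not given as sites of these receptors.

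Genes that bring, make and store cholesterol were in part higher in SAF-TF. Of 21 cholesterol synthesis genes 6 were higher and 0 lower, with a median of 1.03, and all 21 had a positive log2 fold change. Hmgcs1, an early enzyme of the pathway, was at 399 and 225 CPM against 121 and 104 CPM (1.48 ± 0.27, adjusted p = 0.0127). The late enzyme Dhcr7 was at 28.8 and 9.02 CPM against 3.10 and 2.61 CPM (2.72 ± 0.59, adjusted p = 0.0234). With libraries left out in the order above, 1, 4, 1 and 1 of these genes were higher.

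Of 18 genes of cholesterol uptake, storage and export, 5 were higher and 1 lower, with a median of 0.91. Scarb1, the receptor that takes up cholesterol from high density lipoprotein, was at 144 and 59.7 CPM against 9.87 and 16.9 CPM (2.92 ± 0.50, adjusted p = 0.0108, 2 of 4 leave-one-out fits). Soat1, which esterifies cholesterol for storage, was higher (0.88 ± 0.23, adjusted p = 0.0445), and the very low density lipoprotein receptor Vldlr was lower (-1.67 ± 0.40, adjusted p = 0.0318). Neither kept its call with any library left out (highest adjusted p = 0.306 and 0.184). The list had 0, 2, 0 and 1 higher genes in those fits.

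Lipid droplet and fatty acid genes were higher in 6 of 20 and lower in 0, with a median of 0.80. Acsl4, which activates arachidonic acid, was at 254 and 154 CPM against 28.9 and 31.0 CPM (2.76 ± 0.28, adjusted p = 0.00113). It was called in each leave-one-out fit. The droplet coat genes Plin4 and Plin5 were at 24.3 and 13.0, and at 29.7 and 17.1 CPM, in SAF-TF, and at most at 0.92 and 0.69 CPM in SAF-WT. Their log2 fold changes were 4.49 ± 0.60 and 5.61 ± 0.83 (adjusted p = 0.00562 and 0.00621). With the libraries left out in the order above, 1, 6, 2 and 2 of the 20 were higher.

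Theca and hedgehog genes were lower in 6 of 14 and higher in 1, with a median of -1.18. Granulosa cells send hedgehog signals, and theca precursors answer through the receptor Ptch1 and raise Ptch1 and Hhip. Ptch1 (chr13:63508328-63573460) was at 31.0 and 36.3 CPM in SAF-TF against 205 and 214 CPM in SAF-WT (-2.64 ± 0.34, adjusted p = 0.00402). Hhip, which binds hedgehog ligands, was at 8.36 and 7.22 CPM against 117 and 131 CPM (-3.99 ± 0.57, adjusted p = 0.00557). Insl3, a peptide hormone of theca cells, was at 5.61 and 1.92 CPM against 87.6 and 79.5 CPM (-4.47 ± 0.91, adjusted p = 0.0187). In all 3 genes the SAF-WT replicates lay close together and far above SAF-TF. The transcription factor gene Gli3 (-1.65) and the peptidase gene Enpep (-1.93 ± 0.39) were lower too. The ligand gene Ihh was at 2.08 (adjusted p = 0.0582) and the signal transducer gene Smo at -0.23 (adjusted p = 0.663). The one member that was higher was Lhcgr. With libraries left out in the order above, 2, 3, 3 and 3 of the list were lower. Ptch1 and Cyp17a1 passed in each of these fits, Hhip in 3 (highest adjusted p = 0.0592) and Insl3 and Enpep in none (0.0963 and 0.172).

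Stroma and fibroblast genes were lower in 6 of 20 and higher in 1, with a median of -1.15. Their summed level was 2264 and 1577 CPM in SAF-TF and 8819 and 5954 CPM in SAF-WT. Mfap5 (chr6:122513584-122529290), a microfibril protein, was at 57.2 and 52.9 CPM against 771 and 584 CPM (-3.62 ± 0.30, adjusted p = 3.58e-04). The small proteoglycans Ogn and Aspn were at 459 and 356 against 4893 and 2950 CPM (-3.27 ± 0.60, adjusted p = 0.0134), and at 71.5 and 49.3 against 1140 and 569 CPM (-3.82 ± 0.70, adjusted p = 0.0132). The matrix genes Fbln5 (-2.19 ± 0.41, adjusted p = 0.0147) and Fbn1 (-1.40 ± 0.29, adjusted p = 0.0206) were also lower. Dcn, a related proteoglycan, was at 544 and 381 CPM against 726 and 687 CPM (-0.61 ± 0.38, adjusted p = 0.315), and Fbln1, which encodes fibulin, was higher (1.43). With libraries left out in the order above 1, 1, 1 and 3 of the list were lower, and Mfap5 was called each time. Ogn and Aspn were called in 1 of the 4 (highest adjusted p of each 0.100).

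Collagen chains were lower in 3 of 15 and higher in 0 (median -0.38), smooth muscle and pericyte genes in 1 of 16 (median -0.75) and endothelial genes in 1 of 20 (median 0.37). Over all genes tested 5.34% were lower, so the muscle and endothelial counts were near that share. Col6a3 was at 23.8 and 17.9 CPM against 73.0 and 60.4 CPM (-1.68 ± 0.31, adjusted p = 0.0145). The kinase gene Mylk, which starts smooth muscle contraction, was at 193 and 189 CPM against 976 and 665 CPM (-2.10 ± 0.46, adjusted p = 0.0237). Acta2, the smooth muscle actin gene, was at 870 and 553 CPM against 1692 and 1482 CPM, without a call (-1.16 ± 0.48, adjusted p = 0.145). Emcn, an endothelial sialomucin, was at 31.2 and 30.8 CPM against 143 and 119 CPM (-2.08 ± 0.44, adjusted p = 0.0206), while Pecam1 overlapped between groups at 12.0 and 5.30 against 4.36 and 5.45 CPM. The vessel factor genes Figf, Angpt2 and Thbs2 were the 3 lower among 19 angiogenic factors (0 higher, median -0.21), at -3.49, -1.77 and -1.93. None of the collagen, muscle and endothelial calls held with a library left out, and the angiogenic factors counted 0, 2, 0 and 0 lower in the order above.

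**Figure D3:**
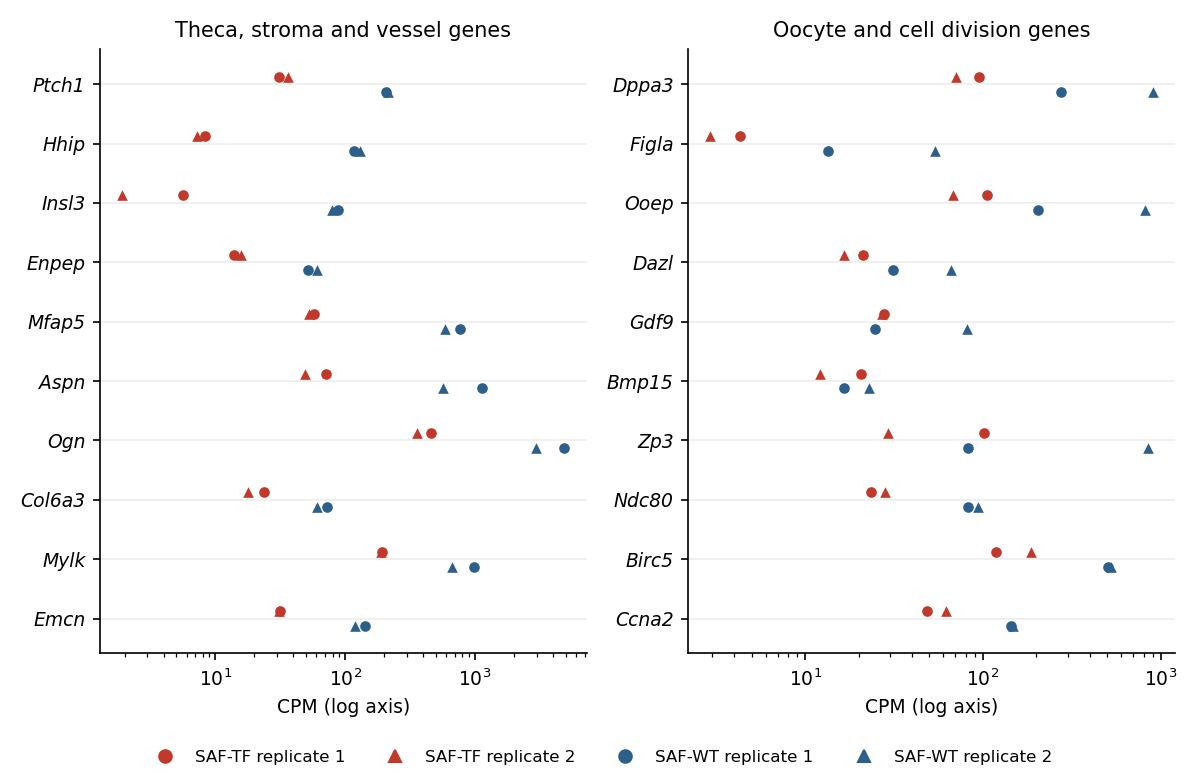
CPM (log axis) of 20 genes in each of the 4 small antral libraries, red for SAF-TF and blue for SAF-WT, circles for replicate 1 and triangles for replicate 2. The theca, stroma and vessel genes shown are called genes and are lower in SAF-TF without overlap, as were 32.5% of all genes tested. Emcn is the only endothelial gene shown, and the endothelial list had a median log2 fold change of 0.37. Gdf9, Bmp15 and Zp3 overlap, and SAF-WT replicate 2 is the highest library for all 7 oocyte genes.

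Of 22 granulosa cell genes, 2 were higher and 0 lower, with a median of 0.48, while 4.61% of all genes tested were higher. Inha (chr1:75507077-75510366), the inhibin alpha subunit, was at 1208 and 1693 CPM against 259 and 346 CPM (2.26 ± 0.31, adjusted p = 0.00500, 3 of 4 leave-one-out fits, highest adjusted p = 0.0537). Fshr, the follicle-stimulating hormone receptor, was at 18.3 and 40.7 CPM against 9.06 and 12.3 CPM (1.46 ± 0.40, adjusted p = 0.0489, no leave-one-out fit). Amh, the anti-Mullerian hormone of growing follicles, was low throughout at 6.05 and 4.62 against 0.57 and 1.30 CPM (adjusted p = 0.123). The list counted 1, 1, 0 and 1 in the order above. The granulosa transcription factor genes Gata4 (0.56) and Wt1 (-0.28) were not called.

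Of 14 genes of cumulus expansion and ovulation, 3 were higher and 0 lower, with a median of 0.34, and these 3 encode transcription factors. Runx2 was at 71.9 and 48.0 CPM against 2.98 and 1.18 CPM (4.83 ± 0.47, adjusted p = 0.00104), and Cebpb at 135 and 60.0 CPM against 6.08 and 10.9 CPM (3.52 ± 0.49, adjusted p = 0.00500). Both were called in each leave-one-out fit. Runx1 was at 78.4 and 48.4 CPM against 23.2 and 29.4 CPM (1.27 ± 0.32, adjusted p = 0.0393) and was called in 1 of these fits (highest adjusted p = 0.312). The matrix genes of the expanding cumulus, Tnfaip6 (-0.59), Ptx3 (-0.71) and Vcan (0.27), and the progesterone receptor gene Pgr (-2.75, adjusted p = 0.118) were not called.

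Oocyte genes were lower in 6 of 40 and higher in 0, with a median of -1.05. Their values depended on SAF-WT replicate 2. The summed level of the list was 1251 and 701 CPM in SAF-TF and 1175 and 4946 CPM in SAF-WT. Dppa3, a maternal factor of the early embryo, was at 94.8 and 70.3 CPM against 274 and 900 CPM (-2.83 ± 0.50, adjusted p = 0.0115). Figla, a transcription factor of the oocyte, was at 4.29 and 2.93 CPM against 13.4 and 54.0 CPM (-3.22 ± 0.58, adjusted p = 0.0130). Ooep, of the subcortical maternal complex, was at 106 and 67.4 CPM against 203 and 814 CPM (-2.55 ± 0.54, adjusted p = 0.0210). For these 3 genes the groups did not overlap, as for 32.5% of all genes tested that were lower in SAF-TF. In each of the 3, SAF-WT replicate 2 was well above replicate 1. Gdf9 and Bmp15, growth factors that the oocyte secretes, overlapped between groups, at 27.9 and 27.0 against 24.8 and 81.8 CPM, and at 20.6 and 12.1 against 16.6 and 23.0 CPM. The zona pellucida gene Zp3 was at 101 and 29.2 against 82.6 and 852 CPM (adjusted p = 0.0695). Without SAF-WT replicate 2, 1 oocyte gene was lower, without SAF-WT replicate 1 there were 12, and without either SAF-TF library there were 0.

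Some genes of antigen presenting cells were higher in SAF-TF. Of 8 measured genes of MHC class II presentation, 4 were higher and 0 lower, with a median of 3.53. All 8 were higher in SAF-TF without overlap of libraries, as were 31.3% of all genes tested. H2-Aa was at 93.4 and 81.2 CPM against 2.64 and 6.87 CPM (4.2 ± 0.56, adjusted p = 0.00442), and H2-Ab1 at 53.7 and 45.8 against 2.64 and 5.09 CPM (3.68 ± 0.45, adjusted p = 0.00352). The invariant chain gene Cd74 was at 337 and 280 against 4.24 and 12.4 CPM (5.21 ± 1.09, adjusted p = 0.0206). In these 3 genes SAF-WT replicate 2 was above replicate 1, and the SAF-TF replicates lay close together. With libraries left out in the order above 3, 4, 2 and 3 of the list were higher. H2-Aa and H2-Ab1 were called each time and Cd74 in 1 of the 4 (highest adjusted p = 0.159).

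Among 24 macrophage genes, 4 were higher and 0 lower, with a median of 1.47, and 23 had a positive log2 fold change. The list summed to 1128 and 1770 CPM in SAF-TF and 456 and 554 CPM in SAF-WT, and no member was at 0 in both libraries of a group. C1qb, a complement subunit made by macrophages, was at 135 and 224 CPM against 31.0 and 47.2 CPM (2.20 ± 0.40, adjusted p = 0.0132). Cd68, a lysosomal membrane protein of macrophages, was at 41.9 and 93.8 CPM against 11.6 and 10.9 CPM (2.59 ± 0.55, adjusted p = 0.0208). Emr1, the F4/80 antigen, was at 17.6 and 30.1 CPM against 6.88 and 6.99 CPM (1.78 ± 0.48, adjusted p = 0.0469). SAF-TF replicate 2 was the highest library for all 3. With libraries left out in the order above, 2, 0, 0 and 0 macrophage genes were higher, and 2 were with the GC and length correction. In a fit of only the 4 small antral libraries, 18 were higher.

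No gene of 10 for lymphocytes and granulocytes and none of 7 erythroid genes was called by edgeR over all 8 libraries or by DESeq2, which gave no adjusted p for 4 of the former and 2 of the latter. At an unadjusted p under 0.05 in edgeR, 1 of the former was higher and 4 of the latter were lower. The hemoglobin gene Hba-a1 was at 240 and 130 CPM against 1205 and 1182 CPM (-2.69 ± 1.10, adjusted p = 0.143). The erythroid list summed to 626 and 307 CPM in SAF-TF and 3477 and 3188 CPM in SAF-WT. Hemoglobin varied widely between the preantral libraries, whose spread enters these standard errors, from 2.66 to 1926 CPM for Hba-a1. In the fit of only the 4 small antral libraries, Hba-a1 (-2.65, adjusted p = 8.02e-04), Hba-a2 (-3.34, adjusted p = 6.16e-04), Hbb-bs (-2.73, adjusted p = 0.00148) and Hbb-bt (-2.82, adjusted p = 0.00269) were lower by edgeR, and the B cell receptor gene Cd79b was higher (2.81, adjusted p = 0.0183). Of 16 genes of the ovarian surface epithelium, 2 were higher and 0 lower (median 0.18), among them the keratin gene Krt18 at 53.7 and 43.6 CPM against 14.1 and 18.8 CPM (1.56 ± 0.39, adjusted p = 0.0370), a call that no leave-one-out fit kept (highest adjusted p = 0.241). Krt19 overlapped, at 76.7 and 27.2 against 7.11 and 45.5 CPM.

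Cell division genes were lower in 15 of 26 and higher in 0, with a median of -0.97. Ndc80, of the kinetochore, was at 23.4 and 28.1 CPM against 82.1 and 94.2 CPM (-1.77 ± 0.22, adjusted p = 0.00393). Birc5, of the chromosomal passenger complex, was at 119 and 186 CPM against 502 and 526 CPM (-1.75 ± 0.24, adjusted p = 0.00510). The cyclin gene Ccna2 was at 48.4 and 62.3 CPM against 143 and 148 CPM (-1.40 ± 0.22, adjusted p = 0.00871). SAF-TF replicate 2 was above replicate 1 in all 3 genes and still far below SAF-WT. Mki67, the proliferation antigen Ki-67, was at 45.4 and 94.2 CPM against 155 and 113 CPM and was not called (-0.94 ± 0.33, adjusted p = 0.0967). Plk1 and Cdc20 stood at 0.30 and 0.08. With libraries left out in the order above, 2, 16, 3 and 4 of the list were lower, with Ndc80 and Birc5 called each time and Ccna2 in 1 (highest adjusted p = 0.100).

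Of 23 DNA replication genes, 4 were lower and 0 higher, with a median of -0.54. Tyms, which makes thymidylate, was at 91.6 and 118 CPM against 272 and 240 CPM (-1.29 ± 0.20, adjusted p = 0.00712), and the cyclin gene Ccne2 at 7.15 and 13.6 CPM against 46.5 and 38.0 CPM (-2.02 ± 0.33, adjusted p = 0.00889). Both were called in 2 of the 4 leave-one-out fits (highest adjusted p = 0.0873 and 0.0791), and the list counted 0, 4, 0 and 4 in the order above.

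Of 23 genes of apoptosis and follicle atresia, 3 were higher and 0 lower, with a median of 0.25. Cdkn1a, the p21 inhibitor of cyclin-dependent kinases, was at 122 and 95.8 CPM against 4.36 and 7.94 CPM (4.15 ± 0.42, adjusted p = 0.00124). Gadd45a, a growth arrest gene, was at 116 and 117 CPM against 28.7 and 23.3 CPM (2.16 ± 0.24, adjusted p = 0.00222). Each was called in all 4 leave-one-out fits. Clu, the extracellular chaperone clusterin, was at 1555 and 1229 CPM against 260 and 333 CPM (2.23 ± 0.39, adjusted p = 0.0113) and was called in 1 of them (highest adjusted p = 0.0989). The apoptosis genes Bax (-0.42) and Bbc3 (0.92) were not called.

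Cytosolic ribosomal protein genes were lower in 33 of 40 and higher in 0, with a median of -1.02 and a negative value for all 40. Rps24 was at 642 and 701 CPM against 1824 and 1577 CPM (-1.34 ± 0.21, adjusted p = 0.00851), and Rpl30 at 177 and 224 CPM against 506 and 480 CPM (-1.30 ± 0.20, adjusted p = 0.00712). These transcripts are short, with a median of 1102 bases. Among 3284 genes with the shortest transcripts, of up to 1535 bases, the median log2 fold change was -0.34. They also share reads with near-identical copies, so single values are uncertain. Rpl3 was at 53.9 and 15.3 CPM against 297 and 291 CPM (-3.08 ± 0.49, adjusted p = 0.00835), but its 7 named copies were at 324.8 and 236.5 CPM against 140.5 and 138.3 CPM. Summed with the copies, Rpl3 stood at -0.47 (adjusted p = 0.249). Rps18 was at 433 and 516 CPM against 2130 and 1883 CPM (-2.08 ± 0.20, adjusted p = 0.00104). Its pseudogene Gm10260 (Rps18-ps6 in RefSeq), chosen after its values were seen, was at 237 and 329 CPM against 18.6 and 14.8 CPM. With 177 named copies summed with their genes, an alternative chosen after seeing the data, 34 of 40 were lower and the median was -1.02. In the leave-one-out fits 2, 16, 2 and 10 were lower, and 28 were with the GC and length correction.

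Of 40 genes of oxidative phosphorylation, 9 were lower and 0 higher, with a median of -0.30. Cox6c was at 837 and 949 CPM against 2501 and 2306 CPM (-1.43 ± 0.19, adjusted p = 0.00442), and Cox7b at 338 and 434 CPM against 981 and 863 CPM (-1.26 ± 0.25, adjusted p = 0.0167). Both encode small subunits of cytochrome c oxidase. Ndufv2 of complex I was also lower (-0.78 ± 0.19, adjusted p = 0.0336), while Sdha of succinate dehydrogenase at 0.75 (adjusted p = 0.121) and Uqcrc1 of the bc1 complex at 1.00 (adjusted p = 0.160) were not called. In the leave-one-out fits 0, 3, 1 and 1 were lower, with Cox6c called in 3 (highest adjusted p = 0.0523) and Cox7b in 1 (0.163). With the GC and length correction 3 were lower, and Cox7b was not called (-0.52, adjusted p = 0.126).

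Glycolysis and lactate genes were higher in 7 of 22 and lower in 0, with a median of 1.39. Aldoa was at 751 and 490 CPM against 205 and 210 CPM (1.58 ± 0.27, adjusted p = 0.0101), Eno1 at 388 and 223 against 80.8 and 82.9 CPM (1.90 ± 0.33, adjusted p = 0.0115) and Pkm at 182 and 99.3 against 52.3 and 47.8 CPM (1.49 ± 0.32, adjusted p = 0.0237). These encode aldolase, enolase and pyruvate kinase, and SAF-TF replicate 1 was the highest library for each. Ldha, which makes lactate, was at 0.46 (adjusted p = 0.186). The list counted 0, 7, 0 and 0 in the leave-one-out fits and 4 with the GC and length correction. The 3 genes were each called in 1 leave-one-out fit, with highest adjusted p of 0.0873, 0.0963 and 0.206.

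Lysosome and autophagy genes were higher in 9 of 25 and lower in 1, with a median of 0.81. Lgmn, a lysosomal endopeptidase, was at 193 and 72.7 CPM against 8.95 and 12.1 CPM (3.66 ± 0.46, adjusted p = 0.00402, called in each leave-one-out fit). The cathepsin genes Ctsd and Ctsb were at 142 and 99.6 against 25.6 and 37.3 CPM (1.94 ± 0.27, adjusted p = 0.00540), and at 739 and 421 against 102 and 143 CPM (2.24 ± 0.43, adjusted p = 0.0155). The tetraspanin gene Cd63 was the member that was lower (-0.93). In the leave-one-out fits 1, 8, 1 and 2 were higher, with Ctsd called in 2 (highest adjusted p = 0.0589) and Ctsb in 1 (0.130).

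Of 17 immediate early genes, which respond quickly to stimuli and to tissue handling, 5 were higher and 0 lower, with a median of 1.29. Dusp1, a phosphatase of MAP kinases, was at 63.7 and 23.7 CPM against 2.29 and 5.33 CPM (3.52 ± 0.55, adjusted p = 0.00789), and Junb at 26.8 and 6.54 CPM against 0.92 and 0.47 CPM (4.55 ± 0.84, adjusted p = 0.0132). Fos was at 1.29 (adjusted p = 0.138) and Egr1 at 1.03 (adjusted p = 0.133), without a call. The list counted 0, 5, 0 and 1 in the leave-one-out fits. Dusp1 was called in 2 of them (highest adjusted p = 0.0664) and Junb in 1 (0.148).

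**Figure D4:**
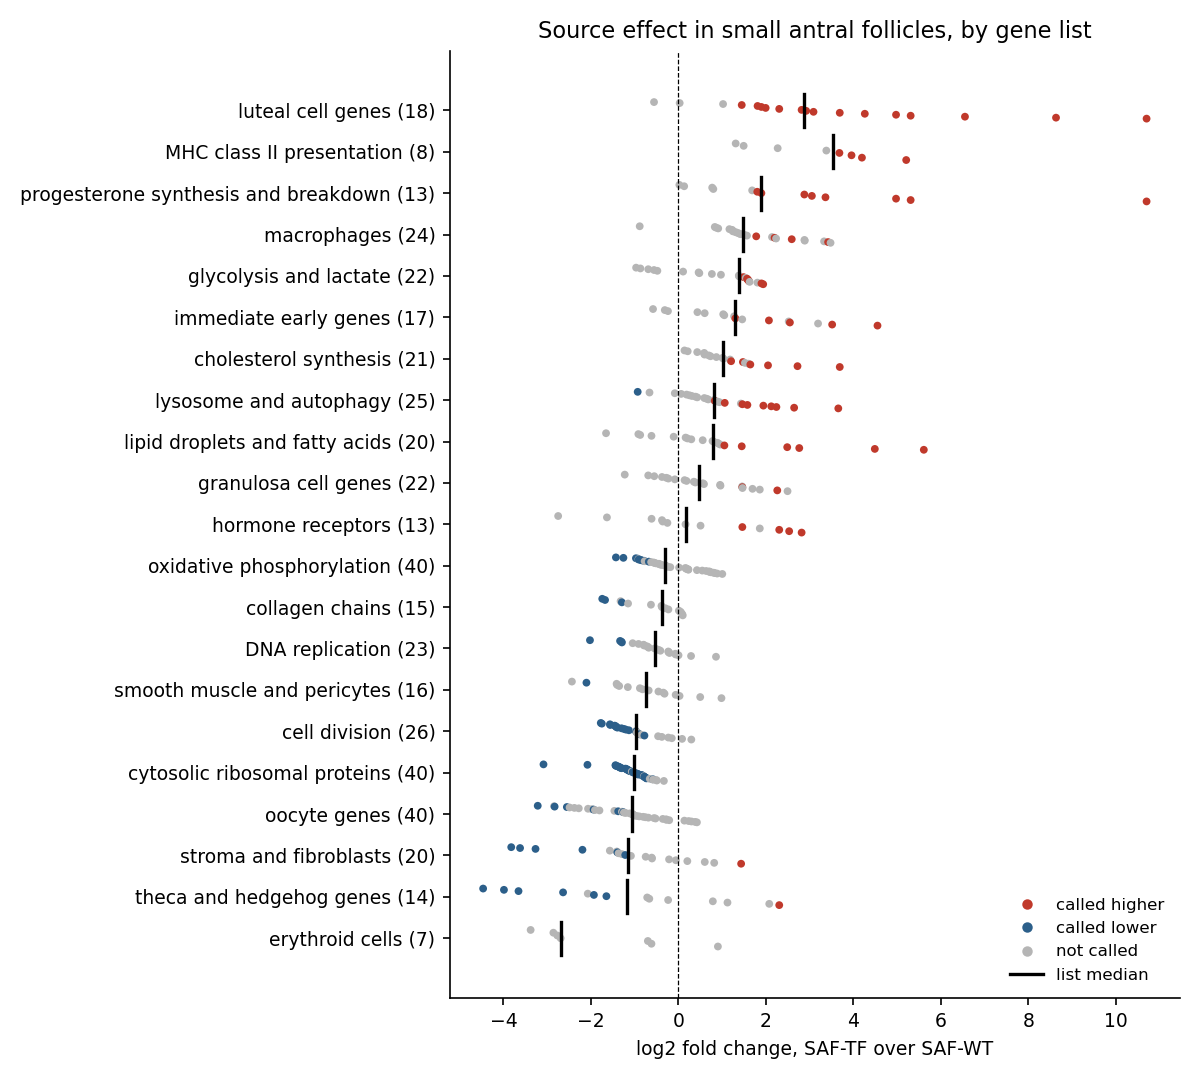
Log2 fold change of SAF-TF over SAF-WT for every measured member of 21 gene lists, with the number measured in brackets, a black bar at the list median, and red, blue and grey points for genes called higher, called lower and not called. Luteal genes have a median of 2.87 and theca and hedgehog genes one of -1.18, while granulosa genes are centred near 0.48. The lists were chosen with earlier results of these data known.

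Among 28 Wnt genes, 4 were higher and 1 lower, with a median of 0.63. Beside Sfrp4 these were the ligand genes Wnt4, at 119 and 66.1 CPM against 3.56 and 5.81 CPM (4.31 ± 0.86, adjusted p = 0.0182), and Wnt6, at 19.7 and 11.3 against 1.15 and 2.61 CPM (3.04 ± 0.72, adjusted p = 0.0304). Wnt4 and Wnt6 passed in 1 leave-one-out fit each (highest adjusted p = 0.144 and 0.200), and the list counted 1, 4, 2 and 2. The antagonist gene Dkk1 was lower, with 1 count in SAF-TF and 17 in SAF-WT, a ratio of 17.8 with a 95% counting interval of 2.79 to 744. Axin2, a common target of the pathway, was at 1.36 (adjusted p = 0.0977).

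The insulin-like growth factor system had 3 of 17 genes higher and 3 lower, with a median of 0.00. The binding protein genes were divided. Igfbp2 was at 49.6 and 22.3 CPM against 5.28 and 10.2 CPM (2.22 ± 0.50, adjusted p = 0.0265) and Igfbp4 at 129 and 94.6 against 35.4 and 36.7 CPM (1.63 ± 0.42, adjusted p = 0.0401). Igfbp6 was lower, at 128 and 92.5 against 235 and 276 CPM (-1.22 ± 0.26, adjusted p = 0.0218). Igfbp2 was called in 1 leave-one-out fit and Igfbp4 and Igfbp6 in none (highest adjusted p = 0.233, 0.258 and 0.123). With the GC and length correction 0 genes of the list were higher by edgeR, with Igfbp2 at 1.68 (adjusted p = 0.065) and Igfbp4 at 1.16 (adjusted p = 0.138). The receptor gene Igf1r stood at -0.31 without a call. Of 30 genes of the TGF-beta family 1 was higher, the latency protein gene Ltbp1 (2.45 ± 0.41, adjusted p = 0.0100), and 1 lower, the receptor gene Bmpr1a (-1.04 ± 0.22, adjusted p = 0.0202), with a median of 0.09. Over all genes tested, 4.61% were higher and 5.34% lower. Ltbp1 was called in 1 leave-one-out fit and Bmpr1a in none (highest adjusted p = 0.0900 and 0.182).

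Of 23 antioxidant genes 3 were higher and 1 lower (median 0.15). Gpx3, the secreted glutathione peroxidase, was at 661 and 300 CPM against 43.0 and 59.1 CPM (3.23 ± 0.49, adjusted p = 0.00702), and heme oxygenase Hmox1 at 73.9 and 47.1 CPM against 10.6 and 13.2 CPM (2.35 ± 0.38, adjusted p = 0.00864). The cytosolic dismutase gene Sod1 was at 0.01. Gpx3 passed in 3 leave-one-out fits (highest adjusted p = 0.0682) and Hmox1 in 1 (0.0846), and the list counted 1, 3, 0 and 1. Of 24 interferon response genes, 2 were higher and 1 lower (median 0.96), and of 22 complement and acute phase genes 3 and 2 (median 1.06). Over all genes tested, 4.61% were higher and 5.34% lower. Among the interferon genes, 19 had a positive and 5 a negative log2 fold change, and the 2 called higher were Psmb8 and Irf1. Saa2, an acute phase protein, was at 24.6 and 24.5 CPM against 0.11 and 0.36 CPM (6.63 ± 0.66, adjusted p = 0.00345). The antiviral membrane protein gene Bst2 was lower, at 153 and 86.4 CPM against 366 and 376 CPM (-1.63 ± 0.27, adjusted p = 0.00937). Saa2 was called in each leave-one-out fit and Bst2 in 2 (highest adjusted p = 0.0592). Of 19 genes of the unfolded protein response 1 was higher (median 0.05), and of 20 prostaglandin genes 1, which was Ptgfr (median 0.20). These 2 counts were near the 4.61% that were higher among all genes tested.

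Imprinted genes were lower in 4 of 22 and higher in 1, with a median of -0.09. Mest was at 7.04 and 5.98 CPM against 23.6 and 45.0 CPM (-2.40 ± 0.41, adjusted p = 0.0104), and Plagl1 at 40.7 and 52.9 against 130 and 127 CPM (-1.46 ± 0.28, adjusted p = 0.0163). Dlk1 had 56 counts in SAF-TF and none in SAF-WT, at least 8.88-fold higher against a floor of 3 counts per library. Mest was called in 2 leave-one-out fits (highest adjusted p = 0.0870), Plagl1 in 1 (0.161) and Dlk1 in none (0.235), and 0, 2, 1 and 0 of the list were lower. H19 (-0.48) and Snrpn (0.17) were not called. Of 19 Hox genes 1 was higher (median 0.21), Hoxc9, at 10.2 and 12.1 CPM against 0.46 and 0.95 CPM, a call that no leave-one-out fit kept (highest adjusted p = 0.153). The Hox count was near the 4.61% that were higher among all genes tested.

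By size alone, several genes outside these lists were among the most different. Onecut2, a homeobox transcription factor gene, had 909 and 1079 counts in SAF-TF and 0 and 1 in SAF-WT, a ratio of 1899 with a counting interval of 340.5 to 75050. Ssu2 had 813 and 772 counts against 1 and 1, a ratio of 757 (209 to 6257). Bhmt, betaine-homocysteine methyltransferase, was at 112 and 48.4 CPM against 0.46 and 0.47 CPM (7.38 ± 0.61, adjusted p = 3.58e-04). Kcnab3, a potassium channel subunit, was at 159 and 138 CPM against 1.49 and 2.49 CPM (6.21 ± 0.44, adjusted p = 1.39e-04). All 4 genes were called in each leave-one-out fit.

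On the lower side, Tmem100 (chr11:90030348-90036508), a membrane protein gene, was at 54.7 and 65.9 CPM against 984 and 830 CPM (-3.91 ± 0.26, adjusted p = 1.11e-04). Pi15, a secreted protease inhibitor, was at 2.31 and 2.14 CPM against 60.3 and 50.7 CPM (-4.63 ± 0.53, adjusted p = 0.00239). Xdh, xanthine dehydrogenase, was at 3.08 and 1.92 CPM against 44.7 and 69.2 CPM (-4.50 ± 0.48, adjusted p = 0.00177). These 3 genes also passed each leave-one-out fit. Cldn1, a tight junction protein, and Tnnt2, the cardiac troponin T, were at -3.90 ± 0.56 and -3.70 ± 0.55 and passed in 3 of them (highest adjusted p = 0.0572 and 0.0786).

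The same comparison of sources in preantral follicles called 39 of 17925 genes (0.218%), against 1785 in small antral follicles. At an unadjusted p under 0.05 in edgeR the numbers were closer, 3719 in preantral and 5117 in small antral follicles. Few calls in preantral follicles therefore do not show that the sources were alike there. The difference between the 2 source effects was tested as an interaction. It was more positive in small antral follicles for 118 genes (0.658%) and more negative for 44 (0.245%). With the libraries left out in the order above, 40, 90, 51 and 24 were more positive and 10, 20, 61 and 4 more negative. Of the 827 genes that were higher in SAF-TF, 101 were among the former, and of the 958 that were lower, 37 were among the latter. In both stages 19 genes were called. Of the 1785 genes called in small antral follicles, 1327 had the same sign in preantral ones. The share with the same sign over all genes tested was not computed, so no conclusion is drawn from this number.

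For part of the progesterone and luteal genes, the source effect differed between stages. Interaction calls were made for 8 of 18 luteal and 4 of 13 progesterone genes, each more positive in small antral follicles. Akr1c18 was at 6.31 and 6.42 CPM in PF-TF and 7.09 and 6.99 CPM in PF-WT, so that the difference between effects was 10.85 ± 0.29 (adjusted p = 1.36e-07). Star was at 4.98 and 3.21 against 7.75 and 3.33 CPM there (difference 5.73 ± 0.58, adjusted p = 0.00429). Cyp11a1 was at 6.76 and 13.2 against 65.4 and 31.4 CPM (7.24 ± 0.78, adjusted p = 0.00488). Akr1c18 was thus at about the same low level in both preantral groups and in SAF-WT. For Hsd3b1 no difference between the source effects was called (difference 0.38 ± 0.44, adjusted p = 0.746). In preantral follicles PF-TF was also the higher group, at 1609 and 2852 against 617 and 945 CPM, without a call (adjusted p = 0.0588). H2-Ab1 was at 1.22 and 1.30 CPM in PF-TF against 7.22 and 3.66 CPM in PF-WT, which was not called (adjusted p = 0.0720), and the effects differed between stages (difference 5.77 ± 0.66, adjusted p = 0.00670).

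None of 14 theca and hedgehog genes and none of 20 stroma genes passed this interaction test in edgeR. At an unadjusted p under 0.05, 1 theca gene was more positive and 3 more negative, and 3 and 4 stroma genes were. DESeq2 called 1 and 1 theca genes and 2 and 1 stroma genes. The list medians in preantral follicles were -1.21 and -2.20. Ptch1 was at 14.1 and 30.6 CPM in PF-TF and 42.1 and 51.3 CPM in PF-WT (difference -1.58 ± 0.46, adjusted p = 0.143), and Mfap5 at 2.10 and 2.91 against 14.4 and 8.10 CPM (-1.47 ± 0.44, adjusted p = 0.152). In preantral follicles Mfap5 was lower in PF-TF (adjusted p = 0.0494) and Ptch1 was not called (adjusted p = 0.116). A missed threshold does not show that the effects were alike at the 2 stages. Ribosomal protein genes had a median of -0.85 in preantral follicles and 0 interaction calls by edgeR among 40, with 1 at an unadjusted p under 0.05 and 1 called by DESeq2. Mdk, the growth factor midkine, was lower in SAF-TF (83.0 and 70.7 against 335 and 361 CPM) and was at 75.1 and 89.2 CPM in PF-TF against 31.4 and 33.0 CPM in PF-WT (difference -3.53 ± 0.28, adjusted p = 0.00133).

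**Figure D5:**
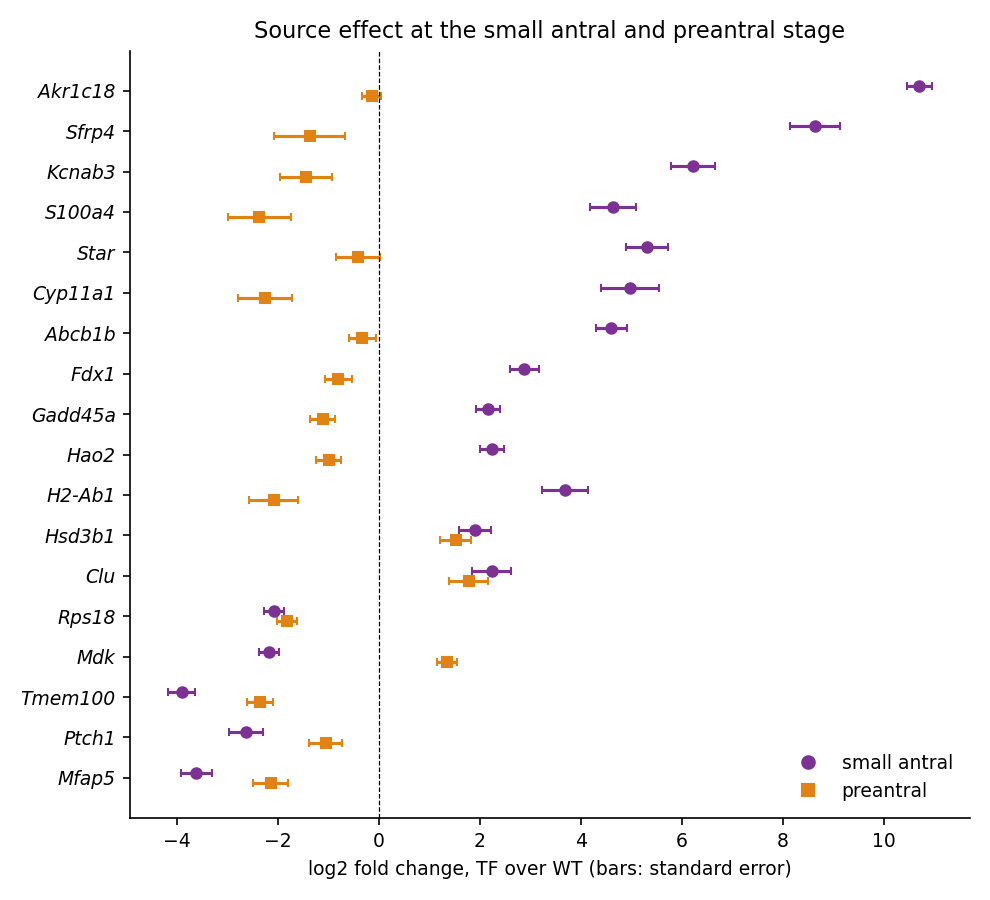
Log2 fold change of TF over WT with its standard error for 18 genes, in small antral follicles (purple circles) and preantral follicles (orange squares), with the dashed line at no difference. Akr1c18 stands at 10.71 in small antral and -0.14 in preantral follicles, whereas Hsd3b1, Clu, Rps18, Ptch1, Tmem100 and Mfap5 have the same sign in both.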

How the data were processed

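Per the file headers, the authors deposited raw counts per gene, whole numbers without normalization, and separate tables held the TF and the WT libraries. Per the labels' protocols, cDNA libraries of single follicles were made with SMARTer Ultra Low Input chemistry. The submitters' processing notes name HISAT2 2.0.1 and the GRCm38 build. For the read counter, the annotation and the strand setting, nothing is given in the sources used here. The tables list 22129 and 22138 genes and were joined on the 21997 in both; 132 and 141 genes listed in only 1 table were left out. The authors' normalized columns and their own stage comparisons were not used.

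CPM used TMM factors set jointly over the 8 libraries. Genes were kept by filterByExpr (min.count 10, min.total.count 15), which left 17925. The edgeR 4.0.16 quasi-likelihood test (R 4.3.3) was fitted with 1 mean per group, 4 residual degrees of freedom and a coefficient of biological variation of 0.303, and was tested on simulated data. Contrasts were SAF-TF over SAF-WT, PF-TF over PF-WT and their difference. P-values were adjusted by Benjamini-Hochberg over all genes tested. Dividing the log2 fold change by the root of its F statistic gave its standard error. A count of 0 allows up to 3 counts, 0.330 to 0.356 CPM in the small antral libraries. Such floors and the 95% counting intervals cover counting error only, because without molecular identifiers reads cannot be taken for independent molecules.

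Gene lists, 39 in all, are described by counts of called members and by medians; 18 listed genes were not in both tables and 42 were below the filter, so members that passed it are not all members. The members and lists were chosen with earlier results of these data known. Genes were named by rule. These were, in each direction, the 15 called genes of largest fold change, without overlap and with at least 10 CPM in the higher group, leaving out predicted genes, ribosomal protein genes and pseudogenes. Added were the 5 members of each list with the smallest p, a set of marker genes, and the 10 genes with the smallest p for the difference from the preantral effect. Not all are printed, and further list members are named beside their list as examples. Some genes are not reported here.

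Alternatives were RLE factors, no filter, a filter at 10 CPM in 2 libraries, the DESeq2 1.42.0 Wald test, the 4 small antral libraries alone, the replicate number as a block, a loess correction for GC content and length of the longest GENCODE transcript (found for 18983 of the shared genes), the correction with the block, and each small antral library left out. Positions and promoter windows are from RefSeq.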

Additional observations from a re-analysis of the deposited data

Results flagged for a closer look

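For 10 genes the source effect in small antral follicles differed from that in preantral follicles by the interaction test of edgeR, and they had the smallest p among genes with at least 10 CPM and no overlap. The log2 difference between effects was 10.85 for Akr1c18, 10.01 for Sfrp4, 7.66 for Kcnab3, 7.01 for S100a4, 5.73 for Star, 4.93 for Abcb1b, 3.69 for Fdx1, 3.28 for Gadd45a and 3.23 for Hao2, each higher in SAF-TF than in SAF-WT. It was -3.53 for Mdk, which was lower in SAF-TF. S100a4, a calcium-binding protein gene, was at 174 and 268 CPM in SAF-TF, 10.1 and 7.70 CPM in SAF-WT, 0.66 and 0.60 CPM in PF-TF and 5.25 and 1.55 CPM in PF-WT. Abcb1b, an efflux transporter gene, was at 162 and 126 CPM in SAF-TF and 6.54 and 5.33 CPM in SAF-WT, and between 21.7 and 34.1 CPM in the preantral libraries. Hao2, a hydroxy acid oxidase gene, was at 1273 and 932 CPM in SAF-TF, 240 and 227 CPM in SAF-WT and between 16.1 and 39.3 CPM in the preantral libraries. With 2 libraries per group, no group was large enough for a check of single outlying libraries.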

How the results depend on the processing

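None of the genes chosen by the naming rule was called in the opposite direction under an alternative that fitted it. Genes without a call could change sign. All 222 were fitted under most alternatives, 198 with the filter at 10 CPM, 218 with DESeq2 and 221 with only the 4 small antral libraries. Leaving out 1 small antral library gave 77 to 600 genes higher and 50 to 407 lower, and 24 to 90 more positive and 4 to 61 more negative in the difference from the preantral effect. In the same fits, higher genes numbered 5 to 7 for progesterone, 8 to 15 for luteal cells, 0 to 2 for macrophages, 2 to 4 for MHC class II, 0 to 7 for glycolysis, 1 to 4 for cholesterol synthesis, 1 to 6 for lipid droplets and 1 to 8 for the lysosome. Lower genes numbered 0 to 12 for the oocyte, 2 to 3 for theca, 1 to 3 for stroma, 2 to 16 for cell division, 2 to 16 for ribosomal proteins and 0 to 3 for oxidative phosphorylation. Each such fit has 1 library in a group, whose spread is assumed to be that of the other groups. DESeq2 called 1236 higher and 1613 lower genes, 482 and 328 in the difference, and 10 oocyte genes. Fitting only the 4 small antral libraries gave 2118 higher and 1803 lower, with 18 macrophage, 12 glycolysis, 12 cholesterol synthesis and 14 lysosome genes. The correction for GC content and length gave 506 and 516, with 2 macrophage, 3 oxidative phosphorylation and 4 glycolysis genes. RLE factors gave 737 and 1013, no filter 798 and 890, and the filter at 10 CPM 909 and 988. Among small lists, RLE factors changed the higher granulosa, surface epithelium and interferon genes from 2 to 1 each, and the filter at 10 CPM changed the interferon genes from 2 to 5.

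With the replicate block, 485 genes were higher and 584 lower, 62 and 12 in the difference, with 2 macrophage and 3 oxidative phosphorylation genes. With the correction for GC content and length and the replicate block together there were 345 and 339, 17 more negative in the difference, and 1 oocyte, 1 macrophage, 8 cell division, 18 ribosomal protein, 1 oxidative phosphorylation, 2 glycolysis, 2 cholesterol synthesis, 3 lipid droplet and 3 lysosome genes. Nothing in the labels ties equal replicate numbers together. The deviations of SAF-TF and SAF-WT libraries with the same number from their group means correlated at -0.09 across genes. Over all pairs of groups, such correlations lay between -0.133 (PF-TF and PF-WT) and 0.137 (SAF-TF and PF-TF). With 2 libraries per group, these values cannot decide whether libraries of equal number shared any handling, which was not tested. The cause of these changes in counts was not tested. With 4 residual degrees of freedom, a missed call shows little about equality. The part of sequencing depth in missed calls was not tested.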

Other observations

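The pseudogene Gm10260 differed in the opposite direction to its parent gene Rps18. It was named after its values were seen, as was the ribosomal protein gene Rpl29, for which no copies are given. Gm10260 (Rps18-ps6 in RefSeq) was at 237 and 329 CPM in SAF-TF, 18.6 and 14.8 CPM in SAF-WT, 145 and 150 CPM in PF-TF and 5.91 and 5.99 CPM in PF-WT, whereas Rps18 was at 433 and 516, 2130 and 1883, 215 and 242, and 888 and 729 CPM in the same order. The separation by source was therefore present at both stages. Rpl29 was at 22.3 and 4.96 CPM in SAF-TF, 886 and 896 CPM in SAF-WT, 135 and 144 CPM in PF-TF and 551 and 412 CPM in PF-WT.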
